A study of Mus musculus with 514 samples.

Results

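The 10 genes described here encode enzymes of sphingolipid metabolism and receptors for sphingosine-1-phosphate (S1P) in mouse oocytes and preimplantation embryos. They are S1pr2, S1pr5, Cers2, Cers5, Ormdl2, Ugcg, Sphk1, Sphk2, Sgpl1 and Smpd1, taken by name from a table of 55168 named genes. S1pr2 and S1pr5 were chosen by their TPM at the 4-cell stage, where S1pr2 was lower and S1pr5 higher in mutants, and Cers2 by its lower TPM at the late 2-cell and 8-cell stages. Those values are therefore given as a description, with no test. The same genes were tested at the other stages where they reached the level set for testing, which S1pr2 and S1pr5 did not in oocytes and early 2-cell embryos.

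Sphingolipid synthesis starts at serine palmitoyltransferase, which ORMDL proteins restrain, and passes through ceramide, made by ceramide synthases that differ in the length of the fatty acid they attach. Ceramide is turned into sphingomyelin or glucosylceramide, and on its breakdown it yields sphingosine, which sphingosine kinases phosphorylate to S1P. S1P signals from outside the cell through a family of G protein-coupled receptors, and S1P lyase destroys it.

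RNA was measured in single oocytes and embryos by a protocol derived from FLASH-seq, and 263 full-length libraries in 22 groups gave the main values. A second table of 110 libraries holds reads with a unique molecular identifier (UMI), which mark the 5′ ends of transcripts. Oocytes were taken at metaphase II, and embryos with 2 cells early (E2C) or late (L2C) in that stage, with 4 cells (4C) or with 8 cells (8C). The study removed Nr5a2 (NrKO), Esrrb (EKO) or both (DKO), which encode orphan nuclear receptors, from mother and embryo (mz), from the mother alone (m) or from the embryo alone (z). Oocytes were 9 Nrpp, with wild-type or floxed alleles, 18 NrHet, heterozygous for Nr5a2, and 12 NrKO. At E2C there were 21 mz_Nrpp, 29 mz_NrHet, 22 mz_NrKO, 12 z_NrKO and 18 m_NrKO embryos. At L2C there were 7 mz_DHet, heterozygous for both genes, 10 mz_EKO, 10 mz_NrKO, 6 mz_DKO, 7 z_NrHet and 6 z_NrKO embryos. At 4C the numbers were 6 mz_DHet, 4 mz_EKO, 5 mz_NrKO and 10 mz_DKO, and at 8C they were 21, 10, 10 and 10 in the same order. The mz_DHet embryos are the shared control of every mz comparison from L2C on and lack 1 copy of each gene themselves. The Cre driver, the mothers and the litters are not given in the sources used here, so p-values cover only the spread among embryos, and siblings may be among them.

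Values are transcripts per 1000000 (TPM), which are scaled for transcript length, so levels can be compared between genes. Fold changes are given as log2(TPM + 1) differences with their standard error (SE), which understates the change of genes near 1 TPM. A gene was called at a Benjamini-Hochberg adjusted p under 0.05 in limma, over all genes that reached 5 TPM in a number of libraries equal to the smallest group. In single embryos, fewer cells that express a gene and less RNA per cell cannot be told apart.

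Marker lists distinguished oocytes and 8C embryos but did not check the 4C label, and a few libraries stood apart. Markers of the 2-cell burst had a median sum of 1140 TPM in 4C libraries, above the 820 TPM of L2C. In oocytes that median was 0 TPM, and in 8C libraries 44.6 TPM. Cleavage to morula markers had their highest median sum, 2724 TPM, in 8C libraries. Their medians in 4C (298 TPM) and L2C (392 TPM) lay below that of oocytes (527 TPM). Summed oocyte markers ran from 4391 to 10705 TPM in oocytes and from 4.62 to 156 TPM at 8C, and summed cumulus and granulosa markers reached at most 11.4 TPM from L2C on. At 8C the library labelled mz_NrKO replicate 1 resembled controls: on a scale over 500 other genes, where the mean control is 0 and the mean mz_DKO embryo is 1, it lay at −0.16 and the other 9 libraries of its group at 0.44 to 1.04. The mz_DHet libraries lay at −0.16 to 0.42 on that scale, the highest being replicate 13 (0.42) and replicate 2 (0.31). Tests of the members in 8C mz_NrKO are given with and without mz_NrKO replicate 1. L2C mz_NrKO replicates 6 and 8 and mz_EKO replicates 9 and 10 were the 4 libraries least like the median of their stage (Pearson r across genes of 0.677 to 0.813, the next library being at 0.848). In the UMI table, numbers matched those of the most alike full-length library for 42 of 46 at L2C, 25 of 25 at 4C and 0 of 39 at 8C, where 38 best matches had the same group and another number. The exception, the UMI library labelled 8C mz_DHet replicate 12, was most like a full-length mz_NrKO library. UMI libraries at 8C numbered 16 mz_DHet, 9 mz_EKO, 5 mz_NrKO and 9 mz_DKO, fewer than the full-length ones. Those labelled 23 February 2022 (mz_DHet replicates 1 and 2, and replicate 1 of the other groups) were each most like a full-length library labelled 8 March 2022. The date factor of the 8C UMI fits rests on these labels and may therefore be wrong. Gene-level Nr5a2 RNA was not lower in mutants (8C mz_DHet 472 ± 144 TPM, SD, n = 21, and mz_NrKO 597 ± 241, n = 10), so it did not check those labels, whereas Esrrb at 8C was 47.8 ± 15.5 TPM in mz_DHet and 18.0 ± 8.15 TPM in mz_EKO (log2 −1.56 ± 0.24, adjusted p = 0.000277). Esrrb was lower by 0.71 in mz_EKO at L2C (adjusted p = 0.828), by 0.22 at 4C (adjusted p = 0.974) and by 0.76 in 4C mz_DKO (adjusted p = 0.429), none of them called, so it did not check the labels at those stages.

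Markers of other cell types moved with some groups. The 5 oviduct epithelium markers summed to 249.8 to 499 TPM in 4C mz_DKO and to 70.4 to 211 TPM in mz_DHet, without overlap, and to 300.4 to 512 and 112.1 to 392 TPM at L2C. At 4C Epcam carried the sums, at 247 to 491 TPM in mz_DKO and 70.4 to 205 TPM in mz_DHet, whereas Ovgp1, which defines the oviduct epithelium, reached at most 5.56 TPM in 4C mz_DKO and 16.4 TPM in mz_DHet. Over all L2C libraries both Ovgp1 and Epcam had a mean of 5 TPM or more. Over oocytes and over E2C libraries only Ovgp1 of this list did, and the list summed to at most 222 and 218 TPM. The 6 blood markers, mainly the globin genes Hba-a2 and Hbb-bs, summed to at most 17.5 TPM in L2C mz_DHet, and reached 272 TPM in 1 mz_NrKO and 288 TPM in 1 mz_DKO library, with medians of 4.16 and 9.18 TPM. The 10 cleavage to morula markers had median sums at 8C of 3304 TPM in mz_DHet, 3637 in mz_EKO, 1937 in mz_NrKO and 2055 in mz_DKO. Their part in the differences of the members was not tested.

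The promoters of the 3 genes that define the set are shown because they are the stretches in which a binding site of Nr5a2 or Esrrb would be looked for first. RefSeq windows of 250 bases before to 50 bases after each start were available for 10 of 10 genes, with 16 starts in all (build GRCm38.p6). S1pr2 was read from chr9:20976744-20977043 (minus strand), S1pr5 from chr9:21248394-21248693 (minus strand), and Cers2 from chr3:95314940-95315239 and chr3:95318580-95318879 (plus strand). Capitals mark the nuclear receptor half-site AGGTCA, or TGACCT where it lies on the other strand.
S1pr2: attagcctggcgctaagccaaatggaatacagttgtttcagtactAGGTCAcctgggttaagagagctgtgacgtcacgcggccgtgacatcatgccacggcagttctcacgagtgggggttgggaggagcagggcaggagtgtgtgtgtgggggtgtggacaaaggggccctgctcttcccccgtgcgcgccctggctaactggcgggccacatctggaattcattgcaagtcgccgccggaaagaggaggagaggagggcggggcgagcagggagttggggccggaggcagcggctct
S1pr5: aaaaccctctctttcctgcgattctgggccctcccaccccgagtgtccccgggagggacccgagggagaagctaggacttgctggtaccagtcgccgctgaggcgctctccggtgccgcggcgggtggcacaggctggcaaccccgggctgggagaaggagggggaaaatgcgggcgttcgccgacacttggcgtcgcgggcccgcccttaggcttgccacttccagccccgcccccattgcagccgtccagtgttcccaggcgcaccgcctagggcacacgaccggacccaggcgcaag
Cers2, first start: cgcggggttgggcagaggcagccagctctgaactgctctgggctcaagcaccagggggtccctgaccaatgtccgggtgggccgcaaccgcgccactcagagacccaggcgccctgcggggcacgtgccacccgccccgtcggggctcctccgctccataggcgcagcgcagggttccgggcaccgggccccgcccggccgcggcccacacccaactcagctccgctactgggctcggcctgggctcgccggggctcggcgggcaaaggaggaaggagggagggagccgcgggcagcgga
Cers2, second start: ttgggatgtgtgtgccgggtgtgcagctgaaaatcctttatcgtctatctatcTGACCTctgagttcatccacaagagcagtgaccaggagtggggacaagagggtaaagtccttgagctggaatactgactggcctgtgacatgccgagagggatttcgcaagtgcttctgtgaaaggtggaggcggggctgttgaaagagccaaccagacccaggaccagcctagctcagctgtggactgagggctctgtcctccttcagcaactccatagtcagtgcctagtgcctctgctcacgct

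The S1pr2 window holds AGGTCA 205 bases before the start, and the second Cers2 window holds it on the other strand 197 bases before the start. On either strand AGGTCA was found in 5 of the 16 windows and in 16.3% of 32851 windows of the genome. The 5 were those of S1pr2, the second Cers2 start, Smpd1 and a pair of overlapping Sphk1 windows that hold the same copy, counted once in each. AAGGTCA, the longer form bound by both receptors, which contains AGGTCA, was found in 0 of 16 windows, against 4.72% of all windows. AAGGCCA, a variant known for Nr5a receptors, was found in 1 of 16, that of Sgpl1, against 6.20%. These matches describe letters in a short window and say nothing about binding.

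S1pr2 encodes a G protein-coupled S1P receptor (ENSMUSG00000043895.6, chr9:20962361-20976781, mm10, minus strand). It was nearly silent before the late 2-cell stage, with mean levels of 0.00905 to 0.848 TPM in the oocyte groups and 0.504 to 1.72 TPM in the E2C groups. At L2C the 7 mz_DHet libraries ranged from 9.58 to 86.9 TPM with a median of 27.2 TPM, the highest group mean of the series (33.9 ± 27.3 TPM, SD). At 4C the 6 mz_DHet embryos held 18.0, 40.9, 35.6, 14.0, 7.38 and 19.0 TPM, and the 4 mz_EKO embryos 28.1, 21.6, 52.6 and 2.3 TPM. The 5 mz_NrKO embryos held 0, 0.862, 0, 0 and 0 TPM, and the 10 mz_DKO embryos 0 to 7.14 TPM with a median of 0.973 TPM. Both groups that lack Nr5a2 lay below every control, without overlap, whereas the range of mz_EKO contained that of the controls. The 4C log2 differences from mz_DHet, which chose the gene, were −4.13 ± 0.69 (SE) in mz_NrKO, −3.38 ± 0.55 in mz_DKO and −0.09 ± 0.76 in mz_EKO. The UMI reads of the same 4C embryos gave 0 TPM in all 5 mz_NrKO libraries and 9.26 ± 8.86 TPM in mz_DHet (SD, n = 6).

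At 8C, which the choice of S1pr2 did not use, the receptor gene was lower in both groups without Nr5a2. The 21 mz_DHet libraries ranged from 0.149 to 38.1 TPM with a median of 16.4 TPM, mz_EKO from 7.07 to 35.2 TPM (median 20.1), mz_NrKO from 0 to 8.36 TPM (median 1.71) and mz_DKO from 0 to 0.834 TPM (median 0.0489). A single control, replicate 2 at 0.149 TPM, lay within the mz_DKO range. This library also lay at 0.31 on the scale over 500 other genes. Of the controls, 20 of 21 exceeded every mz_DKO embryo and 15 of 21 exceeded every mz_NrKO embryo. S1pr2 fell by 3.85 on the log2 scale in mz_DKO (SE 0.36, adjusted p = 4.29e-12) and by 2.16 in mz_NrKO (SE 0.35, adjusted p = 5.22e-06). These are 2 of the 10 calls among the 9 genes tested in these comparisons, where 33.7% of all genes were called in mz_DKO and 28.3% in mz_NrKO. Without mz_NrKO replicate 1 the mz_NrKO difference was −2.40 (adjusted p = 4.66e-07, n = 9) and the background 32.5%. In mz_EKO 0 of 9 members were called in limma, 0 at an unadjusted p under 0.05, with 0.00919% of all genes called there. Between the mutants, S1pr2 was lower in mz_DKO by a log2 difference of −1.70 (95% interval −2.52 to −0.87), which was not called (adjusted p = 0.0825, and −1.43 with adjusted p = 0.233 without mz_NrKO replicate 1) and had the other sign in UMI reads (0.24, adjusted p = 0.975). Against mz_EKO instead, S1pr2 was lower in mz_DKO by a log2 difference of −4.07, S1pr5 higher by 2.45 and Cers5 higher by 2.29, the 3 members called there, against 30.2% of all genes. Leaving out mz_NrKO replicate 1 also brought Ormdl2 (−0.45, adjusted p = 0.046) and Sphk1 (1.12, adjusted p = 0.0441) past the threshold in that comparison. That library is in neither of the groups compared. It still enters the test, because all groups of a stage were fitted in 1 model that shares the spread and the date terms. Leaving it out also changed the number of genes tested from 10876 to 11044. Which of these changed the calls was not tested.

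At L2C the same separation was present in the values but did not pass the test. The 6 mz_DKO embryos held 9.10, 7.11, 0.106, 0, 0 and 0.0745 TPM of S1pr2, the 10 mz_NrKO embryos 0 to 3.49 TPM with a median of 0.389 TPM, and the 10 mz_EKO embryos 0.238 to 18.4 TPM with a median of 10.9 TPM. Neither mz_NrKO nor mz_DKO overlapped mz_DHet. With date in the model, the log2 differences were −2.80 ± 0.67 (adjusted p = 0.0768) in mz_DKO and −2.42 ± 0.73 (adjusted p = 0.259) in mz_NrKO. Controls and mutants were unevenly spread over dates at this stage: 5 of 7 mz_DHet libraries were dated 22 May 2022 and all 10 mz_NrKO libraries 8 March 2022. With no date factor the difference in mz_NrKO was −4.03 (adjusted p = 4.49e-05), and that in mz_DKO was −3.66 (adjusted p = 0.00387). The mz_DKO difference also passed in UMI reads (−2.92, adjusted p = 0.0168), without mz_DHet replicate 2 (−3.02, adjusted p = 0.0388) and without mz_NrKO replicate 6 and mz_EKO replicates 9 and 10 (−2.80, adjusted p = 0.03). Without mz_NrKO replicate 8 as well it was −2.80 (adjusted p = 0.0318), and the mz_NrKO difference was −2.48 (adjusted p = 0.202). These libraries were chosen after seeing the data. Embryos that lacked only their own Nr5a2 copies, z_NrKO, held 0.465, 0, 0, 0, 0 and 4.10 TPM, against 0.905, 10.2, 32.4, 21.7, 13.0, 0.129 and 2.83 TPM in z_NrHet. These ranges overlapped (log2 −2.36 ± 0.62, adjusted p = 0.118). At L2C 0 of 36 tests of members were called in limma, 8 having an unadjusted p under 0.05, and 0.127% of all genes were called in mz_NrKO, 0.141% in mz_DKO, 0.0990% in z_NrKO and 0% in mz_EKO.

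S1pr5 encodes a second S1P receptor, known from natural killer cells and oligodendrocytes (ENSMUSG00000045087.8, chr9:21242912-21248443, mm10, minus strand). It too was nearly silent in oocytes and at E2C, with a mean under 1 TPM in all 8 groups, and at L2C its level in mz_DHet was 3.85 to 26.0 TPM with a median of 17.7 TPM. At 4C the mz_DHet embryos held 19.3, 5.94, 13.5, 17.2, 7.23 and 8.76 TPM, and the mz_EKO embryos 14.0, 32.4, 13.2 and 22.5 TPM. The mz_NrKO embryos held 58.8, 98.7, 85.1, 32.8 and 53.2 TPM, and the mz_DKO embryos 38.5 to 109 TPM with a median of 66.9 TPM. Both groups lay above every control, and the mz_EKO values reached from the control range to above it. The 4C log2 differences, which chose the gene, were 2.36 ± 0.36 in mz_NrKO, 2.55 ± 0.29 in mz_DKO and 0.72 ± 0.40 in mz_EKO.

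At 8C S1pr5 rose in both groups without Nr5a2. Controls ranged from 1.48 to 32.6 TPM (median 17.0) and mz_EKO from 5.04 to 25.1 TPM (median 16.9), whereas mz_NrKO ranged from 2.68 to 116 TPM (median 54.5) and mz_DKO from 15.6 to 170 TPM (median 97.2). Of the mutants, 8 of 10 mz_DKO and 6 of 10 mz_NrKO embryos exceeded every control. The log2 differences were 2.35 ± 0.36 in mz_DKO (adjusted p = 5.98e-07) and 1.42 ± 0.35 in mz_NrKO (adjusted p = 0.00155), or 1.67 in mz_NrKO without replicate 1, which held 2.68 TPM (adjusted p = 0.000191). Within the libraries of 8 March 2022 the mz_NrKO difference was 1.88 (adjusted p = 4.3e-05), and within those of 15 July 2022, with 3 mz_NrKO and 4 mz_DHet libraries, it was 1.1 (adjusted p = 0.487). At L2C, S1pr5 held 32.2 to 50.8 TPM in mz_DKO, above every control, and 13.9 to 62.1 TPM in z_NrKO, yet neither difference passed the test (mz_DKO 1.52 ± 0.67, adjusted p = 0.527, and z_NrKO 1.30 ± 0.62, adjusted p = 0.562).

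**Figure D1:**
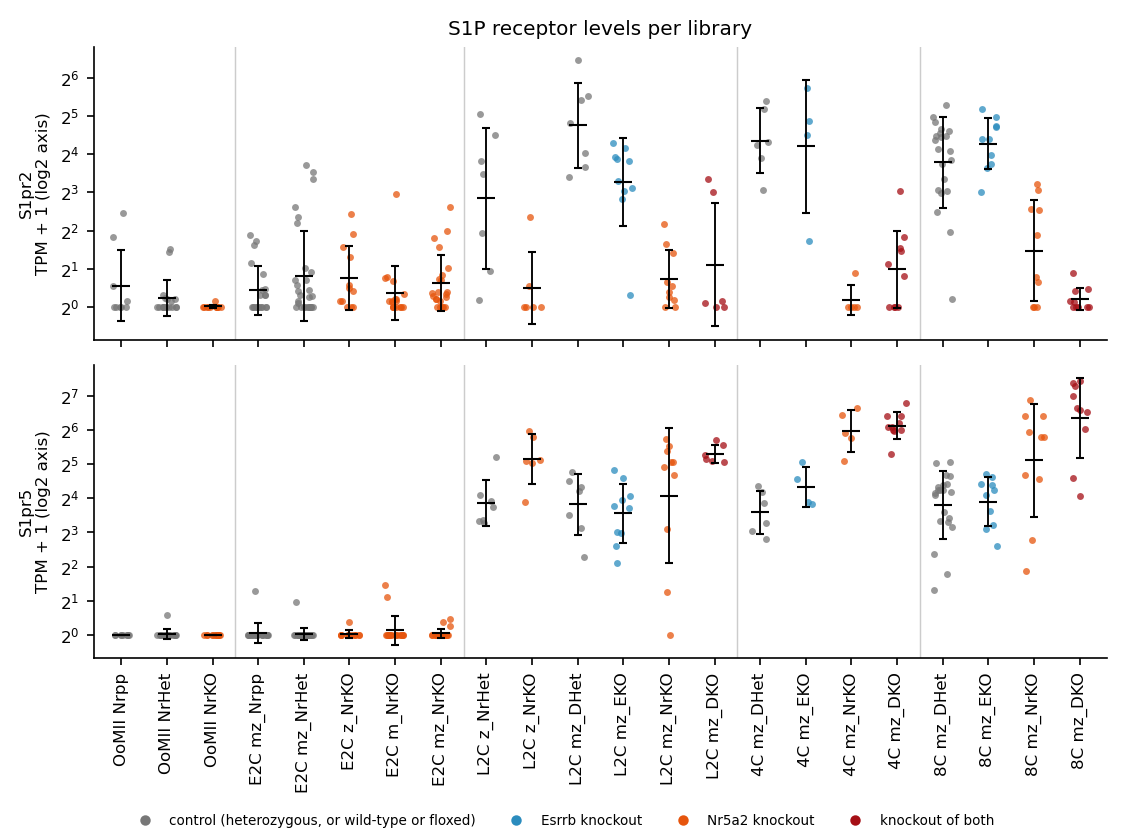
Level of S1pr2 and S1pr5 in every full-length library, as TPM + 1 on a log2 axis, by group and stage; bars give the mean and SD on the log2 scale. At 4C the 5 mz_NrKO and 10 mz_DKO embryos lie below all 6 mz_DHet embryos for S1pr2 and above them for S1pr5.

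The pair can also be read within each embryo. S1pr5 exceeded S1pr2 in 2 of 6 mz_DHet and 2 of 4 mz_EKO embryos at 4C, and in 5 of 5 mz_NrKO and 10 of 10 mz_DKO embryos. At 8C it did so in 10 of 21 mz_DHet, 5 of 10 mz_EKO, 9 of 10 mz_NrKO and 10 of 10 mz_DKO embryos. At L2C it did so in 1 of 7 mz_DHet, 4 of 10 mz_EKO, 8 of 10 mz_NrKO, 6 of 6 mz_DKO, 3 of 7 z_NrHet and 6 of 6 z_NrKO embryos. UMI reads gave the same counts at 4C. At 8C they gave 13 of 16 mz_DHet, 4 of 9 mz_EKO, 5 of 5 mz_NrKO and 9 of 9 mz_DKO libraries. At L2C they gave 2 of 7 mz_DHet, 6 of 10 mz_EKO and 6 of 7 z_NrHet libraries, with the counts of the other groups unchanged. The 4C counts follow from the values that chose both genes.

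S1pr2 and S1pr5 lie near each other on chromosome 9, with 266130 bases and 19 annotated genes between them, 13 of them protein coding. At 8C, 7 of the 9 genes tested in the gap were called in mz_NrKO and the same 7 in mz_DKO, of which Keap1 and Pde4a rose and Icam1, Icam4, Mrpl4, Raver1 and Tyk2 fell. The background there was 28.3% of all genes in mz_NrKO and 33.7% in mz_DKO, and without mz_NrKO replicate 1 the same 7 were called in mz_NrKO. Icam1, an adhesion molecule gene, fell by 2.51 on the log2 scale in mz_NrKO (SE 0.27, adjusted p = 6.78e-10), and Pde4a, a phosphodiesterase gene, rose by 1.46 (SE 0.29, adjusted p = 0.000124). At 4C 1 of 10 was called in mz_DKO (Icam1, −2.11 ± 0.54, adjusted p = 0.0318) and 0 of 10 in mz_NrKO, against 2.58% and 0.675% of all genes, and at L2C 0 of 9 were called. Over the means of 22 groups, the genes most like S1pr2 among 12892 were Atg16l2 (Pearson r = 0.911), Slc25a41 (0.910) and Slc35e4 (0.901), and those most like S1pr5 were Mapk13 (0.981), Itgb7 (0.979) and Wwtr1 (0.978). These are descriptions over groups that share stages and controls.

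Cers2, the ceramide synthase known for very-long-chain ceramides (ENSMUSG00000015714.11, chr3:95314791-95323599, mm10, plus strand), was lower without Nr5a2 at every stage from L2C on. At L2C the 7 mz_DHet embryos held 235, 106.2, 184, 150, 260, 152 and 153 TPM, the 10 mz_NrKO embryos 14.3 to 72.5 TPM with a median of 32.4 TPM, and the 6 mz_DKO embryos 26.7, 133, 63.0, 88.1, 94.2 and 66.2 TPM. The mz_NrKO embryos lay below every control, and the mz_DKO range overlapped it. In z_NrKO the range was 28.6 to 79.8 TPM, below the 87.2 to 184 TPM of z_NrHet. Cers2 was lower at L2C in mz_EKO too, which keeps Nr5a2. Without its replicates 9 and 10 that group held 67.9 to 151 TPM (mean 112 TPM, n = 8), overlapping mz_DHet. The L2C log2 differences, which chose the gene, were −2.49 ± 0.40 in mz_NrKO, −1.28 ± 0.37 in mz_DKO, −1.22 ± 0.41 in mz_EKO and −1.19 ± 0.34 in z_NrKO.

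The 4C embryos did not enter the choice of Cers2. There the mz_DHet embryos held 149, 193, 145, 216, 228 and 326 TPM, the mz_EKO embryos 175, 312, 298 and 218 TPM, the mz_NrKO embryos 107.4, 102.3, 103.8, 52.2 and 85.3 TPM, and the mz_DKO embryos 27.5 to 107.9 TPM with a median of 74.3 TPM. Neither mz_NrKO nor mz_DKO overlapped the controls. Cers2 fell by 1.57 on the log2 scale in mz_DKO (SE 0.25, adjusted p = 0.000481) and by 1.31 in mz_NrKO (SE 0.31, adjusted p = 0.0391), and in mz_EKO 0 of 8 tests of members passed in limma, 1 (Ormdl2) having an unadjusted p under 0.05. In these 4C comparisons 2 of 8 members tested were called in mz_DKO and 2 of 8 in mz_NrKO, against 2.58% and 0.675% of all genes, and 0% in mz_EKO. The mz_NrKO call was a narrow one: leaving out mz_DHet replicate 2, 4, 5 or 6, mz_EKO replicate 1, mz_DKO replicate 10 or any 1 of the 5 mz_NrKO embryos gave differences of −1.12 to −1.49 with adjusted p of 0.0508 to 0.188. Within the libraries of 17 June 2022 the difference was −0.80 in mz_NrKO (adjusted p = 0.448) and −1.48 in mz_DKO (adjusted p = 0.00284), and in UMI reads it was −1.65 (adjusted p = 0.129) and −1.96 (adjusted p = 0.00583).

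At 8C, which chose the gene, Cers2 held 74.7 to 383 TPM in mz_DHet (median 152), 18.5 to 202 TPM in mz_NrKO (median 23.2) and 15.2 to 82.7 TPM in mz_DKO (median 43.7). The 202 TPM belonged to mz_NrKO replicate 1, and the other 9 ranged from 18.5 to 54.7 TPM, below every control. The mean in mz_EKO was 178 ± 36.3 TPM (SD, n = 10) and that in mz_DHet 158 ± 58 TPM (n = 21). The log2 differences were −2.16 ± 0.22 in mz_NrKO, −2.43 without replicate 1, and −1.72 ± 0.22 in mz_DKO.

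Cers5, a ceramide synthase known for ceramides with shorter, palmitoyl chains (ENSMUSG00000023021.15, chr15:99734881-99772885, mm10, minus strand), was abundant in every group from the oocyte to 4C. Its level was 240 ± 21.4 TPM in Nrpp oocytes (SD, n = 9), 205 ± 47.3 TPM in L2C mz_DHet (n = 7) and 237 ± 56.0 TPM in 4C mz_DHet (n = 6), and in 8C mz_DHet it was 64.1 ± 36.1 TPM (n = 21). The 8C controls ranged from 14.1 to 155 TPM with a median of 59.6 TPM, and the mz_EKO embryos from 34.4 to 114.1 TPM with a median of 70.4 TPM. The mz_NrKO embryos ranged from 63.9 to 358 TPM (median 160) and the mz_DKO embryos from 199 to 583 TPM (median 315). Every mz_DKO embryo exceeded every control, and 5 of 10 mz_NrKO embryos did.

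Cers5 at 8C rose by 2.24 on the log2 scale in mz_DKO (SE 0.25, adjusted p = 8.83e-10) and by 1.46 in mz_NrKO (SE 0.25, adjusted p = 1.16e-05), or 1.68 without replicate 1 (adjusted p = 2.71e-07). The mz_NrKO difference was 1.63 within the libraries of 8 March 2022 (adjusted p = 2.59e-05) and 1.81 within those of 15 July 2022 (adjusted p = 0.0474). Between the mutants at 8C the difference of 0.78 (95% interval 0.19 to 1.37) was not called (adjusted p = 0.362, and 0.54 with adjusted p = 0.646 without mz_NrKO replicate 1). At 4C the mz_DKO mean was 266 ± 52.0 TPM and no difference of Cers5 was called. The change of the mutant difference between stages was itself tested: from 4C to 8C it was 2.09 ± 0.35 in mz_DKO (adjusted p = 1.01e-05, with 5.80% of all genes called) and 1.14 ± 0.40 in mz_NrKO (adjusted p = 0.135), which became 1.36 without 8C mz_NrKO replicate 1 (adjusted p = 0.0256). From L2C to 8C it was 1.72 ± 0.38 in mz_DKO (adjusted p = 0.00136, 5.65% of all genes) and 1.58 ± 0.38 in mz_NrKO (adjusted p = 0.0124, 1.95%), or 1.80 without replicate 1 (adjusted p = 0.000794). Sums of earlier-stage markers moved with this result at 8C. All 8 oocyte markers measured summed to 4.62 to 59.5 TPM in mz_DHet, 11.0 to 152 TPM in mz_NrKO and 23.1 to 156 TPM in mz_DKO. The 10 markers of the 2-cell burst summed to 1.58 to 119, 3.95 to 810 and 100 to 1686 TPM. Few genes carried these sums. Over all 8C libraries only Zp3 of the oocyte list, and Tdpoz3 and Tdpoz4 of the burst list, had a mean of 5 TPM or more. Within mz_NrKO and within mz_DKO 3 burst markers did. The part of all these markers in the differences of Cers5 and of the other 8C genes was not tested.

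**Figure D2:**
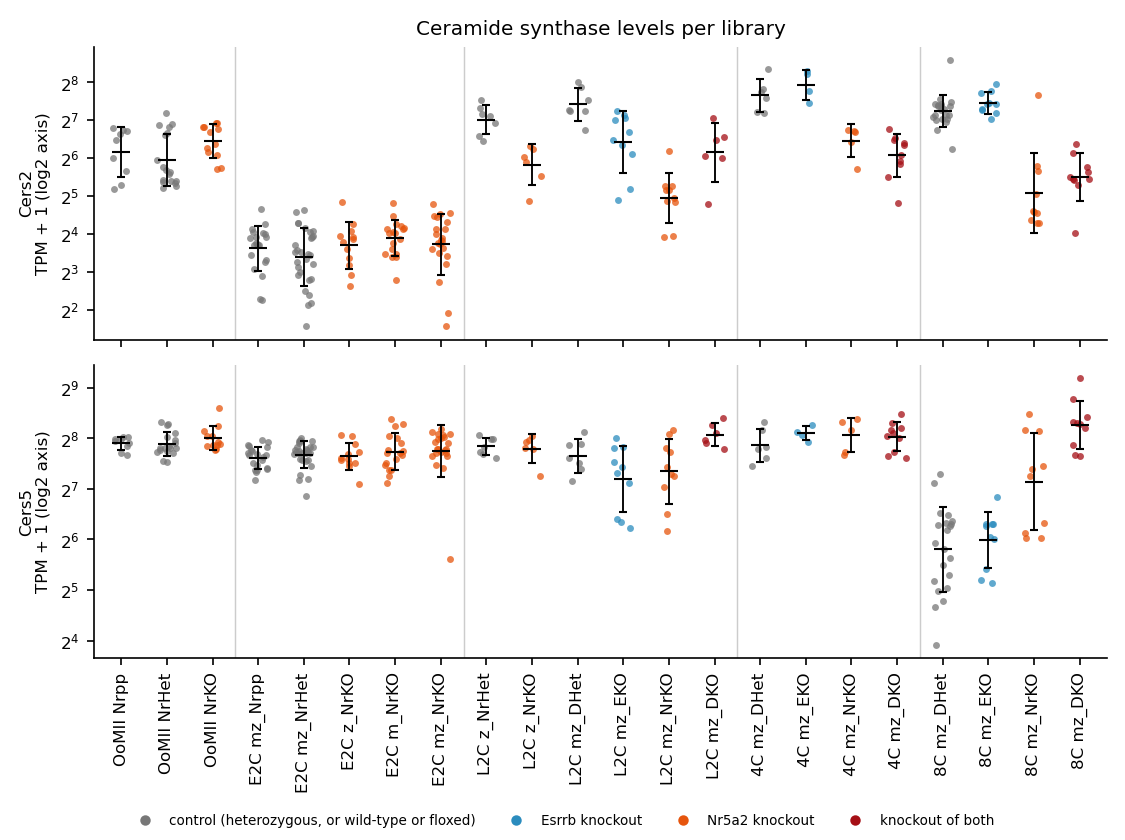
Level of Cers2 and Cers5 in every full-length library, as TPM + 1 on a log2 axis, by group and stage; bars give the mean and SD on the log2 scale. At 8C the mz_DKO embryos lie at 15.2 to 82.7 TPM of Cers2 and at 199 to 583 TPM of Cers5, against 74.7 to 383 and 14.1 to 155 TPM in mz_DHet.

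The order of the ceramide synthase genes within an embryo differed between genotypes at 8C. Cers5 exceeded Cers2 in 1 of 21 mz_DHet, 0 of 10 mz_EKO, 9 of 10 mz_NrKO and 10 of 10 mz_DKO embryos. The exception in mz_NrKO was replicate 1. The mean log2 ratio of Cers5 to Cers2 was −1.44 ± 0.89 in mz_DHet (SD, n = 21), −1.47 ± 0.62 in mz_EKO, 2.05 ± 1.64 in mz_NrKO and 2.76 ± 0.46 in mz_DKO (n = 10 each). The summed level of both genes was 222 ± 78.3 TPM in mz_DHet, 216 ± 104.03 TPM in mz_NrKO and 372 ± 130 TPM in mz_DKO. At 4C, Cers5 was above Cers2 in 4 of 6 mz_DHet, 3 of 4 mz_EKO, 5 of 5 mz_NrKO and 10 of 10 mz_DKO embryos, and in oocytes and at E2C in every library. UMI reads at 4C gave 2 of 6 mz_DHet, 0 of 4 mz_EKO, 4 of 5 mz_NrKO and 10 of 10 mz_DKO. The order in 4C mz_DHet and mz_EKO thus depended on the readout. The Cers2 values at 8C chose that gene, so these counts are a description. The genes whose group means were most like those of Cers2 were Pcsk7 (Pearson r = 0.952), Scamp5 (0.921) and Wdr24 (0.919), over 22 groups.

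Ormdl2 encodes one of the ORMDL proteins that restrain serine palmitoyltransferase (ENSMUSG00000025353.5, chr10:128817902-128821645, mm10, minus strand). Its mutant difference had opposite signs at 4C and 8C. At 4C the mz_DHet embryos held 64.4, 92.1, 67.5, 63.8, 42.0 and 54.6 TPM, the mz_EKO embryos 87.7, 71.1, 181 and 96.6 TPM, the mz_NrKO embryos 196, 199, 280, 103.7 and 119 TPM, and the mz_DKO embryos 67.2 to 218 TPM with a median of 110 TPM. All 5 mz_NrKO and 9 of 10 mz_DKO embryos lay above every control. Ormdl2 rose by 1.47 on the log2 scale in mz_NrKO (SE 0.32, adjusted p = 0.0249) and by 0.95 in mz_DKO (SE 0.26, adjusted p = 0.0417), and the mz_EKO difference was 0.78 ± 0.35 (adjusted p = 0.797).

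At 8C Ormdl2 held 131 to 342 TPM in mz_DHet (median 180), 46.7 to 275 TPM in mz_NrKO (median 119) and 74.8 to 188 TPM in mz_DKO (median 142), with overlap. It fell by 0.72 in mz_NrKO (SE 0.16, adjusted p = 0.000392; by 0.82 without replicate 1, adjusted p = 5.36e-05) and by 0.50 in mz_DKO (SE 0.16, adjusted p = 0.0126). The change of the difference from 4C to 8C was −2.04 ± 0.34 in mz_NrKO (adjusted p = 0.000181, with 1.41% of all genes called; −2.15 without 8C mz_NrKO replicate 1, adjusted p = 1.44e-05) and −1.47 ± 0.30 in mz_DKO (adjusted p = 0.000419). In mz_EKO 0 members and 0% of all genes were called for any change between stages in limma, 1 of 21 member tests having an unadjusted p under 0.05. In controls Ormdl2 stood at 125 ± 51.2 TPM at L2C (SD, n = 7), 64.1 ± 16.6 TPM at 4C (n = 6) and 199 ± 56.0 TPM at 8C (n = 21). The 4C mutant means were 180 ± 71.0 TPM in mz_NrKO (n = 5) and 130 ± 49.0 TPM in mz_DKO (n = 10). The 4C calls were narrow: in mz_DKO the difference was 0.83 to 0.97 with adjusted p of 0.0608 to 0.139 without mz_DHet replicate 1, 3, 4, 5 or 6 or mz_DKO replicate 1, 2, 6, 9 or 10. In mz_NrKO it was 1.32 to 1.44 with adjusted p of 0.0528 to 0.102 without mz_DHet replicate 5 or 6 or mz_NrKO replicate 1, 2 or 3. Both calls were lost in UMI reads (1.31, adjusted p = 0.0825, in mz_NrKO and 0.79, adjusted p = 0.15, in mz_DKO) and within 17 June 2022 (1.61, adjusted p = 0.0792, and 0.93, adjusted p = 0.054).

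Smpd1, the acid sphingomyelinase that releases ceramide from sphingomyelin in lysosomes (ENSMUSG00000037049.9, chr7:105554360-105558389, mm10, plus strand), was the most abundant member at 8C. Its level there was 159 to 798 TPM in mz_DHet (median 423), 71.0 to 604 TPM in mz_NrKO (median 287) and 315 to 612 TPM in mz_DKO (median 512). It fell by 0.73 in mz_NrKO (SE 0.21, adjusted p = 0.00539; by 0.85 without replicate 1, adjusted p = 0.00135), the groups overlapping, and was not called in mz_DKO. In UMI reads the mz_NrKO difference was −0.41 (adjusted p = 0.277), and −0.54 (adjusted p = 0.037) with the date factor and the UMI library labelled mz_DHet replicate 12 left out. At 4C and L2C no difference of Smpd1 was called.

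Ugcg, the glucosylceramide synthase (ENSMUSG00000028381.8, chr4:59189257-59222833, mm10, plus strand), differed with date as well as with genotype at 8C. The mz_DHet embryos ranged from 29.7 to 125 TPM (median 82.8), the mz_NrKO embryos from 13.0 to 82.7 TPM (median 62.7) and the mz_DKO embryos from 87.8 to 139 TPM (median 110.7). The 6 mz_NrKO libraries of 8 March 2022 held 62.1 to 82.7 TPM, the 3 of 15 July 2022 held 19.7, 21.6 and 13.0 TPM, and that of 23 February 2022 held 18.2 TPM. Controls of 15 July were low too, at 29.7 to 43.4 TPM, against 61.6 to 116 TPM on 8 March. Over all dates Ugcg fell by 0.61 in mz_NrKO (SE 0.15, adjusted p = 0.00159), or by 0.48 without replicate 1 (adjusted p = 0.00904). Within 8 March the difference was −0.26 (adjusted p = 0.131), and within 15 July −1.04 (adjusted p = 0.084). In UMI reads, with 5 mz_NrKO libraries and no library of 15 July, it had the other sign (0.46, adjusted p = 0.183). The part of date in this difference was not tested beyond these values. Between the mutants Ugcg was higher in mz_DKO than in mz_NrKO by 0.94 ± 0.18 (adjusted p = 0.0106), the 1 member of 9 called there against 0.147% of all genes, and this was 0.80 without mz_NrKO replicate 1 (adjusted p = 0.0438), 0.59 within 8 March (adjusted p = 0.0888) and 0.18 in UMI reads (adjusted p = 0.964).

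**Figure D3:**
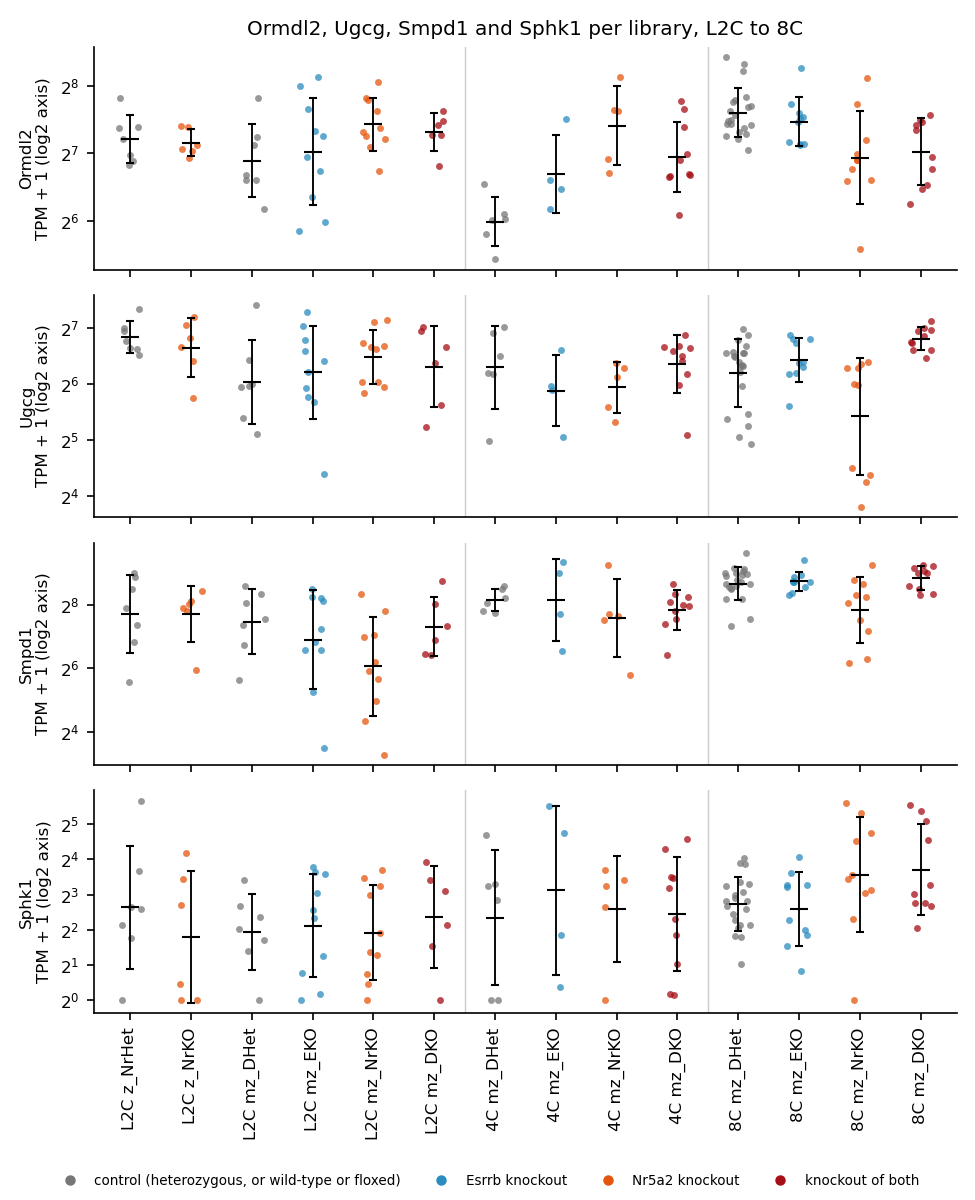
Level of Ormdl2, Ugcg, Smpd1 and Sphk1 in every full-length library from L2C to 8C, as TPM + 1 on a log2 axis; bars give the mean and SD on the log2 scale. Ormdl2 at 4C is higher in mz_NrKO (103.7 to 280 TPM) than in mz_DHet (42.0 to 92.1 TPM), and at 8C its median is lower (119 against 180 TPM).

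The genes that make and destroy S1P had lower levels than the ceramide synthase genes in 8C controls, where Sphk1, Sgpl1 and Sphk2 stood at 6.54 ± 3.94, 20.8 ± 12.7 and 31.8 ± 17.1 TPM (SD, n = 21). Sphk1, a sphingosine kinase (ENSMUSG00000061878.15, chr11:116530925-116536674, mm10, plus strand), ranged from 1.05 to 15.4 TPM in 8C mz_DHet (median 6.03), from 0 to 47.5 TPM in mz_NrKO (median 10.3) and from 3.17 to 45.9 TPM in mz_DKO (median 7.91), with overlap. Its log2 difference was 0.84 ± 0.44 in mz_NrKO (adjusted p = 0.146) and 0.98 in mz_DKO (adjusted p = 0.0803). Without mz_NrKO replicate 1, which was at 0, the difference was 1.34 ± 0.40 in mz_NrKO (adjusted p = 0.00686) and 0.95 in mz_DKO (adjusted p = 0.0494). Sphk2, the second sphingosine kinase, found mostly in the nucleus and mitochondria (ENSMUSG00000057342.15, chr7:45709467-45718002, mm10, minus strand), held 26.7, 33.6, 31.2, 25.3, 27.4 and 33.8 TPM in 4C mz_DHet and 39.2 to 79.3 TPM in 4C mz_DKO, without overlap. That difference was not called (0.81 ± 0.31, adjusted p = 0.208), although it passed within 17 June 2022 (0.85, adjusted p = 0.022). Sgpl1, S1P lyase (ENSMUSG00000020097.14, chr10:61098642-61147703, mm10, minus strand), held 30.3, 28.9, 20.6, 13.5, 5.07 and 14.9 TPM in 4C mz_DHet and 7.39, 10.8, 9.14, 1.76 and 0.468 TPM in 4C mz_NrKO, with overlap (−1.56 ± 0.64, adjusted p = 0.325). At 8C neither Sphk2 nor Sgpl1 was called in any comparison.

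**Figure D4:**
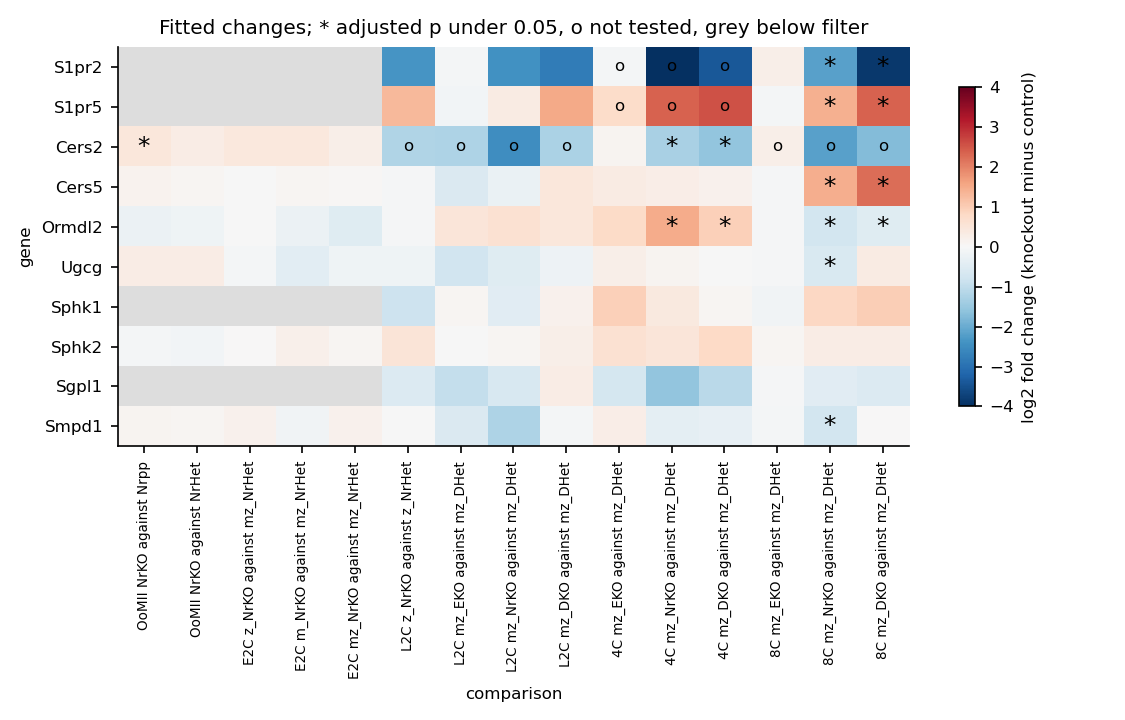
Log2 differences of the 10 genes in each genotype comparison and stage; a star marks an adjusted p under 0.05, a circle a value that chose the gene and was not tested, and grey a gene below the filter. At 8C the mz_NrKO and mz_DKO columns share the signs of S1pr2, S1pr5, Cers2, Cers5 and Ormdl2.

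In oocytes and at E2C the genotypes differed little in the test for the 6 members that passed the filter. S1pr2, S1pr5, Sphk1 and Sgpl1 lay below it there and were not tested. In oocytes 1 of 6 members tested was called: Cers2, at 90.1 ± 26.2 TPM in NrKO (SD, n = 12) and 77.5 ± 31.0 TPM in Nrpp (n = 9), was higher by 0.46 ± 0.12 on the log2 scale with date in the model (adjusted p = 0.0346, with 1.20% of all genes called). This call was lost within 5 June (0.68, adjusted p = 0.0505), within 20 June (0.26, adjusted p = 0.668) and with no date factor (0.27, adjusted p = 0.84). In NrKO against NrHet and in NrHet against Nrpp, 0 of 6 members were called, with 0.212% and 0.0335% of all genes called. At E2C 0 of 24 tests of members passed in limma, against 5.17% of all genes in mz_NrKO, 0.245% in m_NrKO and 0% in z_NrKO, each against mz_NrHet, and 0.268% in mz_NrHet against mz_Nrpp. At an unadjusted p under 0.05 the E2C comparisons held 1 member in mz_NrKO (Ormdl2), 2 in m_NrKO (Cers2 and Ugcg) and 0 in the others, and 2554, 1738, 701 and 1069 of all genes in the order given.

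Control development moved several members. From Nrpp oocytes to mz_Nrpp E2C embryos Cers2 fell by 2.55 (SE 0.24, adjusted p = 2.26e-11), from 77.5 ± 31.0 to 12.3 ± 4.84 TPM, and Cers5 fell by 0.29 (SE 0.09, adjusted p = 0.0077). Smpd1 rose by 1.92 (SE 0.16, adjusted p = 9.3e-13) and Sphk2 by 1.1 (SE 0.14, adjusted p = 2.5e-08). These were 4 of 6 members tested, against 70.8% of all genes, and the median over all genes was 0.65, so that stage, date and the relative scale of TPM cannot be told apart. In mz_DHet from 4C to 8C Ormdl2 rose by 1.53 (SE 0.45, adjusted p = 0.0112), the 1 member called of 10 tested (28.3% of all genes). From L2C to 8C Sgpl1 rose by 1.66 (SE 0.59, adjusted p = 0.0176), Smpd1 rose by 1.51 (SE 0.41, adjusted p = 0.00226) and Cers5 fell by 1.72 (SE 0.41, adjusted p = 0.000667), 3 of 10 against 56.0% of all genes. The medians over all genes were −0.46 from 4C to 8C and −0.45 from L2C to 8C. From L2C to 4C 0 of 10 members were called in limma (2.31% of all genes), and 1, Ormdl2, had an unadjusted p under 0.05. Dates tie these stages together only through 2 L2C libraries of 8 March and 1 4C library of 22 May 2022.

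**Figure D5:**
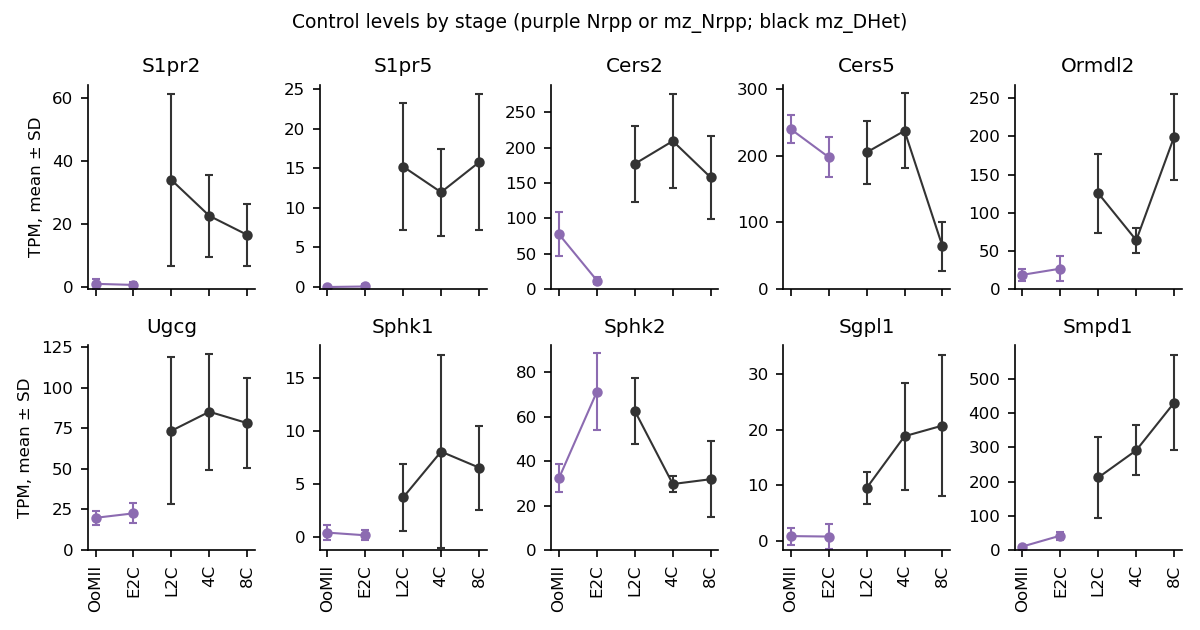
Mean TPM with SD of the 10 genes in control groups, Nrpp or mz_Nrpp for the oocyte and E2C and mz_DHet from L2C to 8C. Cers2 goes from 77.5 TPM in oocytes to 12.3 at E2C, 177 at L2C and 158 at 8C, while Cers5 goes from 237 TPM at 4C to 64.1 at 8C. The E2C and L2C controls share no date and differ in genotype, and the step between them was not tested.

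Of 67 other sphingolipid genes in the table, 46 were tested at 8C, and they moved in both directions. In mz_NrKO 8 rose and 10 fell, and in mz_DKO 11 rose and 10 fell, against the 28.3% and 33.7% of all genes given above, and the median log2 difference of the list was −0.07 in both (0.00 and 0.05 over all genes). Without mz_NrKO replicate 1 the counts in mz_NrKO were 8 and 10 as well. Degs2, a dihydroceramide desaturase and hydroxylase, rose by 2.18 in mz_NrKO (SE 0.36, adjusted p = 6.42e-06) and by 2.86 in mz_DKO (SE 0.36, adjusted p = 1.52e-08). Sptlc2, a subunit of serine palmitoyltransferase, rose by 0.77 (SE 0.16, adjusted p = 0.000289) and 1.27 (SE 0.17, adjusted p = 2.58e-08). Also named by the smallest adjusted p were Gltp, a glycolipid transfer protein, in mz_NrKO (0.94 ± 0.23, adjusted p = 0.00133) and B4galt6, a lactosylceramide synthase, in mz_DKO (2.25 ± 0.34, adjusted p = 5.35e-07).

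Among those that fell at 8C were Psap, the precursor of the saposins that help lysosomal hydrolases (by 2.11 in mz_NrKO, SE 0.29, adjusted p = 1.67e-07, and by 1.99 in mz_DKO, SE 0.29, adjusted p = 2.85e-07), and Plpp2, a lipid phosphate phosphatase (by 1.78 and 2.57, SE 0.35 each, adjusted p = 9.17e-05 and 8e-08). Cers6, another ceramide synthase, fell by 1.55 in mz_NrKO (SE 0.33, adjusted p = 0.000298), and Cptp, a ceramide phosphate transfer protein, fell by 1.33 in mz_DKO (SE 0.29, adjusted p = 0.000196). At 4C 2 of 55 of these genes were called in mz_DKO, where 2.58% of all genes were, the sphingomyelin synthases Sgms1 (2.32 ± 0.52, adjusted p = 0.0123) and Sgms2 (1.37 ± 0.37, adjusted p = 0.0378), and 0 of 55 in mz_NrKO, where 0.675% were. At E2C 3 of 45 were lower in mz_NrKO, near the background of 5.17%, among them the lysosomal genes Psap (−0.98 ± 0.24, adjusted p = 0.00544) and Gla, an alpha-galactosidase (−1.08 ± 0.30, adjusted p = 0.0159). At L2C 0 of 53 and in oocytes 0 of 33 were called in limma, and in mz_EKO 0 at any stage. The comparisons with mz_DHet share their controls at each stage.

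In the GENCODE vM21 annotation, exons of S1pr5, Cers2, Cers5, Ormdl2, Sphk1 and Sphk2 overlap exons of neighbouring genes, among them Setdb1 at Cers2, Dnajc14 and Sarnp at Ormdl2, and Dbp and Rpl18 at Sphk2. Whether counting used the strand is not given in the sources used here, so reads from these shared stretches cannot be told apart.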

How the data were processed

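The deposited full-length and UMI tables hold TPM per gene and library, made by the authors; cutadapt, STAR, RSEM, DESeq2 and mm10 are named in the submitters' processing notes without versions, and the strand setting is not given in the sources used here. The authors' deposited log2 fold changes and false discovery rates (adjusted p-values) were not used. TPM keep no counts, so depth is unknown; between 10655 and 15971 genes exceeded 1 TPM per full-length library. Another 65 entries without a gene name and 141 samples were not analysed here.

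Groups came from the labels. Each stage was fitted in limma 3.58.1 (R 4.3.3, limma-trend, two-sided) on log2(TPM + 1) with group and date, over genes with at least 5 TPM in as many libraries as the smallest group, with Benjamini-Hochberg adjustment over all genes tested; counts were foreseen, and limma was used because the unit is TPM. Scripts were tested on simulated data. The members, gene lists, tests and named genes were chosen with earlier results of these data known. All 10 members, up to 3 rises and 3 falls among other sphingolipid genes in the mutant comparisons with controls at E2C, 4C and 8C (not between mutants or between control stages), the neighbours of S1pr2 and S1pr5, and the targeted genes are named; B4galt6, Gltp, Cers6 and Cptp came from that rule. Same-numbered libraries deviated together beyond a set level in every pair only for NrHet against Nrpp oocytes (9 of 9 pairs, r 0.109 to 0.247, median 0.148). For NrKO against NrHet oocytes 10 of 12 pairs did so (r 0.0739 to 0.269, median 0.164). A gene that the rule would name is not reported here.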

Additional observations from a re-analysis of the deposited data

Results flagged for a closer look

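In 12 of the 140 sets of libraries of 1 group and gene that were checked (groups of 4 to 10), 1 library lay far from the others by Dixon's criterion, which chance alone meets in about 5% of sets. For S1pr2 these were L2C mz_EKO replicate 9 (0.238 TPM), L2C z_NrKO replicate 6 (4.10 TPM), 4C mz_NrKO replicate 2 (0.862 TPM) and 8C mz_DKO replicate 5 (0.834 TPM). For S1pr5 it was L2C z_NrHet replicate 7 (35.7 TPM). For Cers2 they were 8C mz_NrKO replicate 1 (202 TPM), which also resembled controls over other genes, and 8C mz_DKO replicate 10 (15.2 TPM). Cers5 was low in L2C z_NrKO replicate 1 (152 TPM), as was Smpd1 in the same library (60.9 TPM). Ugcg was low in 4C mz_DKO replicate 10 (33.2 TPM), Sphk1 was at 0 TPM in 4C mz_NrKO replicate 3, and Smpd1 was high in Nrpp oocyte replicate 3 (15.3 TPM). The rate of 5% need not hold for sets near 0 TPM. For S1pr2 all other libraries held 0 TPM in 4C mz_NrKO, and 0 to 0.379 TPM in 8C mz_DKO.

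The genotype difference changed between stages, by a test of that change, for Cers5 and Ormdl2. For Cers5 the change was 2.09 from 4C to 8C and 1.72 from L2C to 8C in mz_DKO, and 1.58 from L2C to 8C in mz_NrKO. For Ormdl2 it was −1.47 in mz_DKO and −2.04 in mz_NrKO from 4C to 8C.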

How the results depend on the processing

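Members called at 4C numbered 4, and 1 in UMI reads, with no filter on low values and with the replicate number as a block, 2 with a filter of 1 TPM and within 17 June 2022, and 1 to 4 with 1 library left out (1 without mz_DHet replicate 5 or 6). At 8C there were 14, 3 within 15 July 2022 (6 for the same pairs over all dates) and 11 with the replicate block. At L2C there were 0, but 2 with no date factor and 1 each in UMI reads, with only the 2 groups compared, with a pseudocount of 10 TPM, without 3 or all 4 of the libraries least like their stage and, over libraries left out, 0 to 1. The 1 call in oocytes became 0 within 5 June, within 20 June, with no date factor, with no filter and with the replicate block. At E2C 0 were called throughout. The share of all genes moved with the setting too. In L2C mz_DKO it was 0.141% in the main fit and 0.319% without 3 libraries, and in UMI reads 2 of 11766 genes were lower and 0 higher. In 4C mz_DKO, UMI reads called 30 of 10695 genes as higher and 95 as lower. For most other settings no share is given here, so those counts do not tell a change of the members from one of all genes. Calls lost under the block at 8C were, in mz_NrKO against mz_DHet, Ormdl2 (−0.52, adjusted p = 0.064), Smpd1 (−0.79, adjusted p = 0.0714) and Ugcg (−0.61, adjusted p = 0.0581), and Ugcg between mutants (0.86, adjusted p = 0.212). Same-numbered oocyte libraries share a labelled date. At other stages they share a date only in part, and no pairing is labelled at any stage.

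Among values that were called, or untested because they chose the gene, signs turned for S1pr2 in 4C mz_EKO (0.11 with only 2 groups, 0.0773 with a pseudocount of 10 TPM, −0.53 to 0.62 with a library left out, highest without mz_EKO replicate 4 and above 0 also without mz_DHet replicate 2 or 3 or mz_DKO replicate 10), for S1pr5 between 4C mz_DKO and mz_NrKO (−0.22 within 17 June 2022, −0.0121 to 0.47 with a library left out, lowest without mz_DKO replicate 10) and for Ugcg in 8C mz_NrKO (0.46 in UMI reads, 0.36 also leaving out the date and mz_DHet replicate 12). The cause was not tested. Of the tested values 3189 kept their side of the threshold, 199 of these uncalled and on the other side of 0 (S1pr2 between the 8C mutants was 0.24 in UMI reads, S1pr2 in L2C mz_EKO went from −0.21 to 0.36 and Sphk1 in 4C mz_DKO from −0.41 to 0.56 with libraries left out), 62 lost a call, 35 gained one and 2 turned. UMI reads come from the same embryos, at 8C from only part of them, and are no replicate. Some alternatives, among them single dates, the L2C libraries and the 8C library left out, were chosen after seeing the data. TPM give no depth, so low values near 0 carry an unknown counting error.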
